A study of Mus musculus with 6 samples.

Results

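The neural genes described here are *Neurod1*, *Neurog1*, *Nes*, *Sox1*, *Sox11*, *Cdh2*, *Shank3* and *Tubb3*. They are 8 of the 16668 genes listed in each library and were chosen by name, because the study asks whether H2A ubiquitin ligases hold lineage genes in check in mouse embryonic stem (mES) cells. The study names *Neurod1*, *Neurog1* and *Cdh2* as raised after knockdown and selected them on these libraries, so their direction here is not independent evidence. It also measured them by RT-qPCR and reports Dzip3 at their promoters by ChIP-qPCR. For *Neurog1*, *Cdh2* and *Shank3* it reports chromosome conformation capture signals that fell after Dzip3 knockdown. Those measurements were not analysed here. In short, *Tubb3* was the most abundant of them, *Neurod1* and *Nes* had the widest range between libraries in fold terms among those counted throughout, *Sox1*, *Sox11*, *Cdh2* and *Shank3* rested on 8 to 41 reads per library, and *Neurog1* was at the counting limit.

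These genes mark successive steps from neuroectoderm to neuron. *Sox1*, of the SoxB1 group, marks early neuroectoderm, and *Neurog1* and *Neurod1* encode proneural basic helix-loop-helix (bHLH) transcription factors that pair with E proteins and bind E-boxes (CANNTG). *Sox11*, of the SoxC group, acts in neural precursors and young neurons. *Nes* encodes nestin, an intermediate filament of neural progenitors, *Cdh2* N-cadherin, *Tubb3* the neuronal class III beta-tubulin and *Shank3* a scaffold of the postsynaptic density. In mES cells the promoters of many such genes are CpG-rich and bound by Polycomb complexes. Ring1B, encoded by *Rnf2*, is a subunit of the Polycomb complex PRC1 and ubiquitylates histone H2A, as does Ring1A. Dzip3 is another H2A ubiquitin ligase.

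RNA-seq was performed on E14 mES cells, a feeder-independent line of strain 129/Ola, at passage 3 to 5. All 6 libraries came from cells kept on gelatin in N2B27 medium with LIF, the MEK inhibitor PD0325901 and the GSK3 inhibitor CHIR99021 (2i), and transfected with siRNA. There were 2 libraries each labelled control (control siRNA), Ring1B-KD and Dzip3-KD. The study calls these duplicates biological, and p-values of comparisons by label measure the spread between them. siRNA knockdown leaves part of the target RNA in place, and no genetic deletion was involved.

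Each file name carries a condition word, and in 4 of the 6 libraries this word was not that of the label. In file numbers 01 to 03, here called the first set, the words control, Ring1BKD and Dzip3KD stand, in turn, on control 1, control 2 and Ring1B-KD 1. In file numbers 04 to 06, the second set, the same words stand on Ring1B-KD 2, Dzip3-KD 1 and, last, Dzip3-KD 2. The groups of record are those of the labels. Comparison by the file-name word within each set is given as a second reading. Neither a label nor a word shows by itself that a target was depleted. In every case the libraries sharing a word carry labels that differ. For comparisons by word and between the sets, p-values therefore measure how far the sets disagree on the differences between words.

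Promoters of 7 of the 8 genes were matched in RefSeq (GRCm38.p6, 250 bases before to 50 bases after the start of the gene). Shown here are those of *Neurod1* and *Nes*, which differed most between libraries, of *Tubb3*, the most abundant, and of *Neurog1*, at the counting limit. They are written 5′ to 3′ on the strand of the gene with E-boxes in capitals. They lie at chr2:79456587-79456886 (minus strand), chr3:87970843-87971142 (plus strand), chr8:123411303-123411602 (plus strand) and chr13:56252131-56252430 (minus strand), in that order.
Neurod1: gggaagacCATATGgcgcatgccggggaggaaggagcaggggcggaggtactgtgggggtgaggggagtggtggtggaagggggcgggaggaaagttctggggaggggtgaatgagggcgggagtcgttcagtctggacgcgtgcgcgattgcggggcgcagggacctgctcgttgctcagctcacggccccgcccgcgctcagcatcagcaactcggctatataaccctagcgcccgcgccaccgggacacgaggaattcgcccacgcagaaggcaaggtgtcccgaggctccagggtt
Nes: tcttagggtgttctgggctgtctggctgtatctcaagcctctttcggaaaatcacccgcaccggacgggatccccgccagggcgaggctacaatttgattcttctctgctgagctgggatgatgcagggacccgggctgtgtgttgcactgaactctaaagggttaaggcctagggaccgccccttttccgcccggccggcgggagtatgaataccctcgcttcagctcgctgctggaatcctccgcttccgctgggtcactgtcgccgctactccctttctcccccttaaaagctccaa
Tubb3: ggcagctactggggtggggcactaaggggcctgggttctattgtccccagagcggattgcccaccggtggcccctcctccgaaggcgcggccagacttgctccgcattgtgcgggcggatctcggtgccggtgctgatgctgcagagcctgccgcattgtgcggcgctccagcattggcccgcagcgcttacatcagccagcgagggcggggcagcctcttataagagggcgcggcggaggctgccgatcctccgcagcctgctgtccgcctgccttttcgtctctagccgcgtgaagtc
Neurog1: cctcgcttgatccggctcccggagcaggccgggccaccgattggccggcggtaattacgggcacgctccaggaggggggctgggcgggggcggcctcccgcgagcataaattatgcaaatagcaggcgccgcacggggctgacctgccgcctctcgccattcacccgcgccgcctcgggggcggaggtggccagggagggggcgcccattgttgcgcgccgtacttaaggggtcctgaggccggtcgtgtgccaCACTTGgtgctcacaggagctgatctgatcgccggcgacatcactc

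The 7 promoters held between 18 CpG dinucleotides (*Nes*) and 40 (*Shank3*), where the median over 32851 promoters of that length was 7. Their GC content was 58.7% to 81.0%, beside a median of 52.7%. An E-box (CANNTG, which reads the same on both strands in its fixed letters) lay in the promoters of *Neurod1* (CATATG), *Neurog1* (CACTTG) and *Sox11* (CAGCTG and CATATG), and 72.3% of all promoters held one. A Sox motif (ACAAAG or ACAATG on either strand) matched once in *Neurog1* and at 2 places in *Tubb3*, and 28.6% of all promoters held one. No library-specific measurement of these promoters was analysed here.

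The values are RPKM, read numbers divided by exon length in kilobases and by the mapped reads of the library. The depth recovered from their steps was 3015349 to 3583612 mapped reads per library, and 3 reads, used as the detection floor, corresponded to 0.099 to 0.598 RPKM for the genes described, depending on exon length and library. *Rnf2* was at 30.6 RPKM in control 1, 20.4 in control 2, 26.8 in Ring1B-KD 1, 28.8 in Ring1B-KD 2, 19.4 in Dzip3-KD 1 and 28.2 in Dzip3-KD 2. Neither Ring1B-KD library was below both controls, and the lowest values were in both libraries with the file-name word Ring1BKD. *Dzip3* was at 2.24, 2.68, 1.18, 1.89, 1.70 and 1.31 RPKM in the same order, lowest in both libraries with the file-name word Dzip3KD, and below both controls in both libraries labelled Dzip3-KD and both labelled Ring1B-KD. The *Rnf2* ratio of Ring1BKD to control was 0.668 in the first set (95% counting interval 0.556 to 0.801). In the second set it was 0.674 (0.559 to 0.812). The *Dzip3* ratio of Dzip3KD to control was 0.527 (0.301 to 0.905) in the first set and 0.692 (0.404 to 1.17) in the second. Only the last of these intervals included 1. They rest on 1 library on each side and cover counting error, not the spread between cultures. The limma log2 difference by file-name word was -0.55 for *Rnf2* in Ring1BKD (SE 0.13, adjusted p = 0.232). For *Dzip3* in Dzip3KD it was -0.45 (SE 0.21, adjusted p = 0.754). By label it was 0.15 for *Rnf2* in Ring1B-KD (SE 0.24, adjusted p = 0.965) and -0.47 for *Dzip3* in Dzip3-KD (SE 0.24, adjusted p = 0.458), and for *Dzip3* in Ring1B-KD it was -0.46 (SE 0.24, adjusted p = 0.902). None of these passed.

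All 7 pluripotency markers were expressed, led by *Pou5f1* at 248 to 433 RPKM. Of 8 neuron markers, *Dcx* and *Snap25* were not listed, and the summed level of the others was 27.3 to 46.8 RPKM in 4 libraries and 16.0 and 21.1 RPKM in Dzip3-KD 1 and 2, most of it from *Stmn2* (13.0 to 42.8 RPKM). Summed levels were 10.2 to 18.5 RPKM for 5 primed epiblast markers (led by *Dnmt3b*), 2.65 to 3.76 RPKM for 6 mesendoderm markers (*Eomes*), and 1.09 to 2.88 RPKM for 6 primitive endoderm markers (*Dab2*). They were 2.58 to 3.94 RPKM for 5 glia markers (*Aldh1l1*) and 1.67 to 3.42 RPKM for the 4 fibroblast markers listed (*Thy1*), while *Col3a1* was not listed. In bulk RNA, fewer cells of a type and less RNA per cell cannot be told apart.

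On the per-length RPKM scale the order of mean levels over the 6 libraries was *Tubb3* (19.8), *Nes* (4.44), *Sox1* (1.99), *Neurod1* (1.43), *Cdh2* (1.13), *Sox11* (1.06), *Shank3* (0.596) and *Neurog1* (0.0559). The lowest *Tubb3* value, 12.9 RPKM, exceeded the highest *Nes* value, 7.05 RPKM. From *Nes* to *Sox11*, the ranges of neighbours in this order overlapped. The lowest *Sox11* value, 0.859 RPKM, was just above the highest *Shank3* value, 0.831 RPKM. The single non-zero *Neurog1* value, 0.335 RPKM, was just under the lowest *Shank3* value, 0.352 RPKM.

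**Figure D1:**
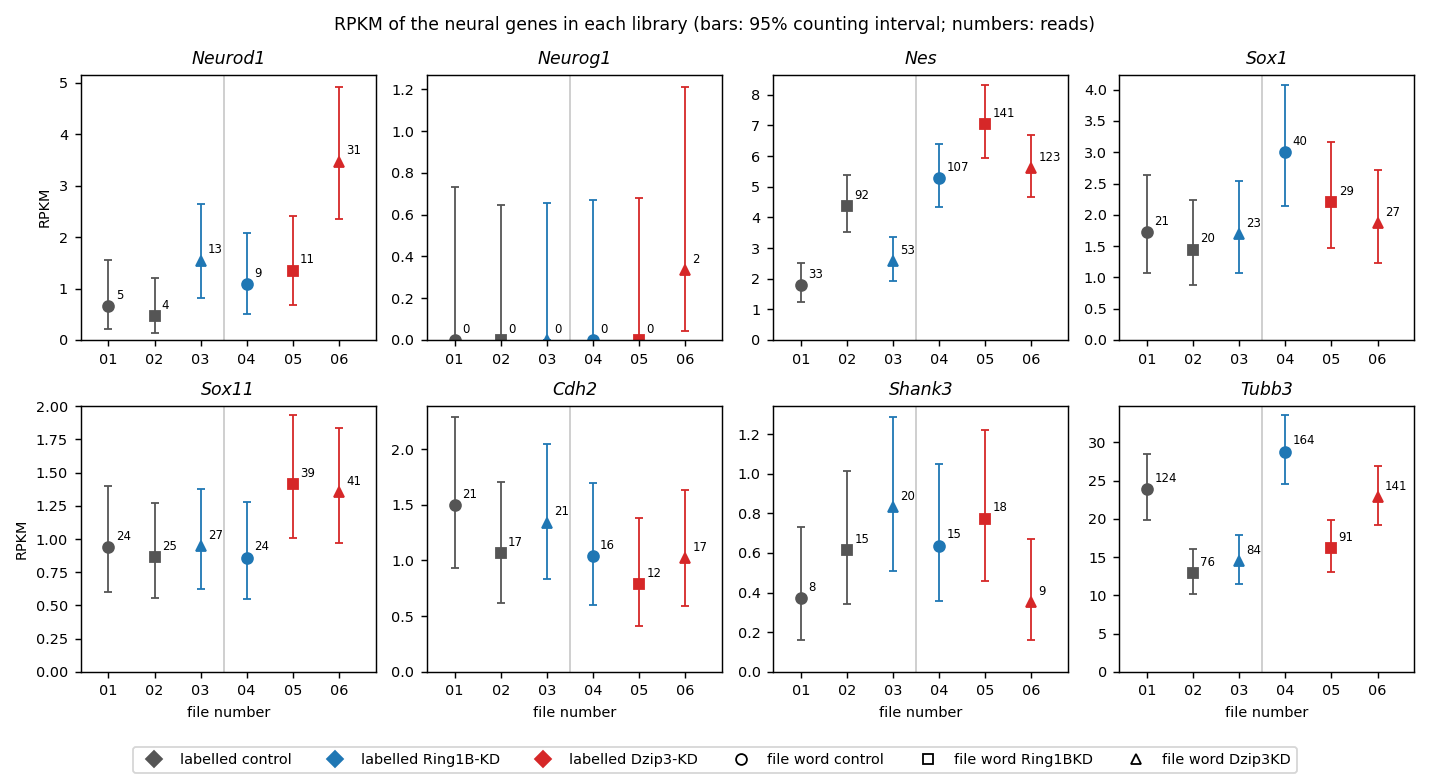
Level of each neural gene in RPKM (vertical axes, one per gene) in the 6 libraries by file number (horizontal axis). Colour gives the label, symbol shape the file-name word, bars the 95% exact Poisson interval of the reads and numbers the reads. *Neurod1* peaks at 31 reads in the library numbered 06, *Nes* is lowest in 01 with 33 reads, and *Neurog1* has reads only in 06.

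*Neurod1*, the proneural factor, was low in every library, on 4 to 31 reads. In the first set it was at 0.665 RPKM in control 1 (file-name word control), 0.468 RPKM in control 2 (Ring1BKD) and 1.54 RPKM in Ring1B-KD 1 (Dzip3KD). In the second set it was at 1.09 RPKM in Ring1B-KD 2 (control), 1.35 RPKM in Dzip3-KD 1 (Ring1BKD) and 3.47 RPKM in Dzip3-KD 2 (Dzip3KD). The library with the word Dzip3KD was therefore the highest of its set both times, and both libraries of each knockdown label lay above both labelled control.

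By label, the limma log2 difference of *Neurod1* on the log2(RPKM + 1) scale, which understates changes of low genes, was 1.05 for Dzip3-KD against control (SE 0.32, adjusted p = 0.319, 346th of 11538 genes by p) and 0.56 for Ring1B-KD (SE 0.32, adjusted p = 0.902). By file-name word it was 0.85 for Dzip3KD against control (SE 0.22, adjusted p = 0.658, 75th by p), -0.01 for Ring1BKD against control (SE 0.22, adjusted p = 0.996) and 0.86 for Dzip3KD against Ring1BKD (SE 0.22, adjusted p = 0.207). None of these passed the threshold of 0.05 after Benjamini-Hochberg adjustment over all genes tested. In single libraries, the ratio of Dzip3KD to control was 2.32 in the first set, with a 95% counting interval of 0.777 to 8.33, and 3.18 in the second, with an interval of 1.48 to 7.59. Only the interval of the second set lay above 1. Intervals here cover counting error and not the spread between cultures. *Neurod1* lies on the minus strand of chromosome 2, 79292678 to 79296908 (mm9, GENCODE M1), where *Cerkl* overlaps it on the same strand, so part of its reads is uncertain.

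*Neurog1*, the other proneural factor (chromosome 13, 56351866 to 56353524, minus strand), had 0 reads in 5 libraries. It had 2 reads, or 0.335 RPKM with an interval of 0.041 to 1.21 RPKM, in Dzip3-KD 2 (file-name word Dzip3KD). In the other 5, the upper limit of the same interval for a count of 0 was 0.646 to 0.735 RPKM, which is above the measured value. A difference was not detectable at this depth, and *Neurog1* was the only member with fewer than 10 reads in every library and the only member under the filter of 0.5 RPKM on the mean, so 7 members entered the tests.

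*Sox1*, the neuroectoderm marker, was counted with 20 to 40 reads. Levels were 1.73, 1.44 and 1.69 RPKM in the first set (control 1, control 2, Ring1B-KD 1) and 3.00, 2.20 and 1.87 RPKM in the second (Ring1B-KD 2 followed by Dzip3-KD 1 and 2). Every library of the second set was above every library of the first, and within each set the library with the word control was the highest. The limma log2 difference by file-name word was -0.24 for Ring1BKD (95% interval -0.72 to 0.24, adjusted p = 0.790) and -0.25 for Dzip3KD (-0.73 to 0.23, adjusted p = 0.846). By label it was 0.35 for Ring1B-KD (-0.23 to 0.92, adjusted p = 0.917) and 0.23 for Dzip3-KD (-0.35 to 0.81, adjusted p = 0.715). The direction therefore differed between the readings, with every interval including 0. No mm9 position is given for *Sox1*, since the annotation used lists no entry under that symbol.

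*Sox11* (chromosome 12, 28025562 to 28027574, minus strand) had 24 to 41 reads per library. Its level was 0.942, 0.862 and 0.947 RPKM in the first set and 0.859, 1.41 and 1.35 RPKM in the second. Both libraries labelled Dzip3-KD stood above the other 4, which ranged from 0.859 to 0.947 RPKM. The difference of Dzip3-KD against control was 0.33 (SE 0.22, limma adjusted p = 0.553), and that of Ring1B-KD was 0.00 (SE 0.22, adjusted p = 1.000). By file-name word it was 0.16 for Ring1BKD (SE 0.22, adjusted p = 0.870) and 0.17 for Dzip3KD (SE 0.22, adjusted p = 0.904), and in the first set the ratio of Ring1BKD to control was below 1, at 0.916, while in the second it was 1.64 (interval 0.964 to 2.86).

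*Nes* (chromosome 3, 87775000 to 87784373, plus strand) was counted with 33 to 141 reads. In the first set it was at 1.79 RPKM in control 1 (file-name word control), 4.38 RPKM in control 2 (Ring1BKD) and 2.56 RPKM in Ring1B-KD 1 (Dzip3KD). In the second set it was at 5.28 RPKM in Ring1B-KD 2 (control), 7.05 RPKM in Dzip3-KD 1 (Ring1BKD) and 5.60 RPKM in Dzip3-KD 2 (Dzip3KD). Both sets ran in the order control, Dzip3KD, Ring1BKD, and the whole second set lay above the whole first set.

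The ratio of Ring1BKD to control for *Nes* was 2.45 in the first set (95% counting interval 1.63 to 3.77) and 1.33 in the second (1.03 to 1.73). Both intervals lay above 1, with 1 library on each side. The limma log2 difference over both sets was 0.65 (SE 0.20, adjusted p = 0.405), and for Dzip3KD against control it was 0.21 (SE 0.20, adjusted p = 0.865). By label, *Nes* was 0.91 higher in Dzip3-KD than in control (SE 0.36, limma adjusted p = 0.388), and both libraries labelled Dzip3-KD exceeded both controls. Over the alternatives in processing this difference ranged from 0.09 to 1.39, lowest with the set as a block on the labels. That block rests on the Ring1B-KD pair, with 1 library on each side. The difference of Ring1B-KD against control was 0.29 (SE 0.36, adjusted p = 0.953), with 1 library below control 2 and 1 above it. None of these passed.

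*Tubb3*, the neuronal tubulin gene (chromosome 8, 125935324 to 125945915, plus strand), was the most abundant member, on 76 to 164 reads. It was at 23.9 RPKM in control 1 (file-name word control), 12.9 RPKM in control 2 (Ring1BKD) and 14.4 RPKM in Ring1B-KD 1 (Dzip3KD), all in the first set. In the second set it was at 28.8 RPKM in Ring1B-KD 2 (control), 16.2 RPKM in Dzip3-KD 1 (Ring1BKD) and 22.8 RPKM in Dzip3-KD 2 (Dzip3KD). Both libraries with the word control were above the other 4, whereas the libraries of each label were widely apart and overlapped those of the other labels.

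The ratio of Ring1BKD to control for *Tubb3* was 0.539 in the first set (95% counting interval 0.4 to 0.723) and 0.561 in the second (0.43 to 0.73), so the sets gave nearly equal values. The ratio of Dzip3KD to control was 0.605 (0.453 to 0.805) and 0.793 (0.629 to 0.999). Over both sets the limma log2 difference was -0.82 for Ring1BKD (SE 0.15, adjusted p = 0.0841, 80th by p) and -0.50 for Dzip3KD (SE 0.15, adjusted p = 0.754), and neither passed. Leaving out Ring1B-KD 1 or Dzip3-KD 2, the libraries of the word Dzip3KD, changes the test of the first difference only through the estimate of spread. Over all alternatives in processing the first difference stayed between -0.92 and -0.72. By label the differences were 0.21 for Ring1B-KD (SE 0.36, adjusted p = 0.968) and 0.12 for Dzip3-KD (SE 0.36, adjusted p = 0.898), within the spread of the pair labelled control (18.4 ± 7.78 RPKM, SD, n = 2). The direction of *Tubb3* thus depended on which reading was used. *Gm20388* overlaps *Tubb3* on the same strand, which leaves part of its reads uncertain.

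*Cdh2* (chromosome 18, 16747386 to 16967755, minus strand) had 12 to 21 reads. It was at 1.50, 1.07 and 1.34 RPKM in the first set and at 1.04, 0.791 and 1.02 RPKM in the second. All of the second set lay below all of the first, and both libraries labelled Dzip3-KD lay below both controls. The limma log2 difference was -0.26 for Dzip3-KD against control by label (95% interval -0.80 to 0.28, adjusted p = 0.657) and -0.06 for Ring1B-KD (-0.59 to 0.48, adjusted p = 0.991). By file-name word it was -0.05 for Dzip3KD (-0.52 to 0.41, adjusted p = 0.972) and -0.23 for Ring1BKD (-0.70 to 0.24, adjusted p = 0.791). *Cdh2* was not higher under any of these comparisons.

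*Shank3* (chromosome 15, 89330054 to 89390692, plus strand), the postsynaptic scaffold gene, had 8 to 20 reads. It was at 0.372, 0.613 and 0.831 RPKM in the first set and at 0.637, 0.773 and 0.352 RPKM in the second. The lowest values were in control 1 and Dzip3-KD 2. Against control by file-name word, the Dzip3KD library was higher in the first set (ratio 2.23, counting interval 0.943 to 5.87) and lower in the second (0.553, interval 0.214 to 1.35), and both intervals include 1. The limma log2 differences were 0.17 for Ring1BKD and 0.07 for Dzip3KD by file-name word, and 0.22 for Ring1B-KD and 0.06 for Dzip3-KD by label, with adjusted p-values of 0.876 to 0.972.

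**Figure D2:**
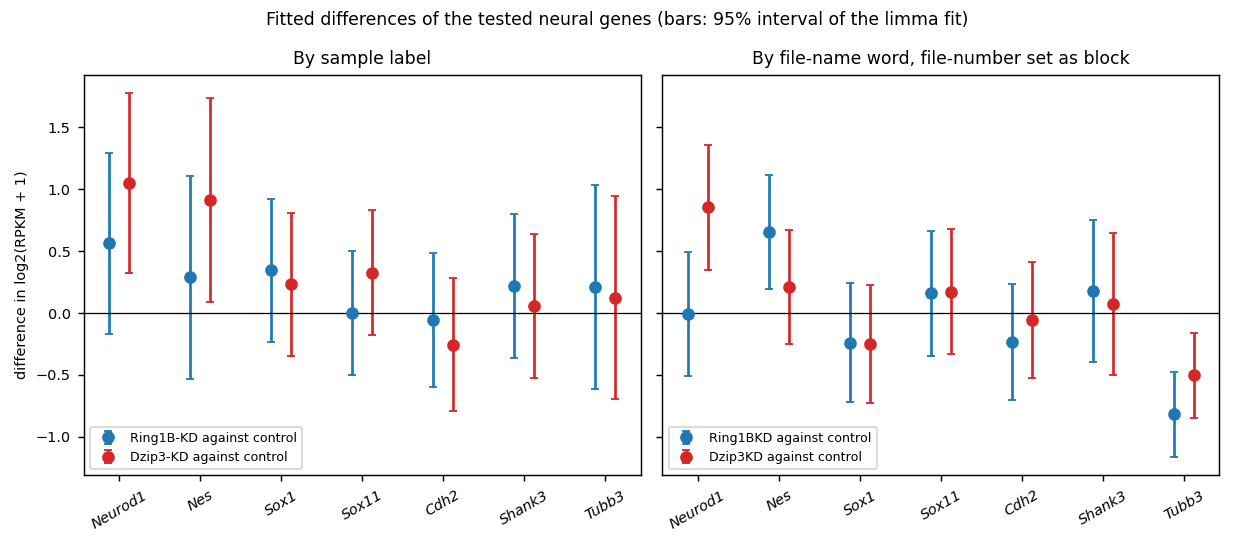
Fitted difference from control in log2(RPKM + 1) (vertical axis) for the 7 neural genes tested, by label (left) and by file-name word with the set as a block (right), with 95% intervals from limma. *Neurod1* in Dzip3-KD stands at 1.05 on the left, *Tubb3* in Ring1BKD at -0.82 on the right, and no point had an adjusted p under 0.05.

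Across all 11538 genes tested, comparison by label called 0 genes at a limma adjusted p under 0.05 in each of the 3 contrasts, or 0% (smallest adjusted p 0.902 for Ring1B-KD against control, 0.254 for Dzip3-KD against control and 0.376 for Dzip3-KD against Ring1B-KD). At an unadjusted p under 0.05 there were 589, 1411 and 534 genes, and a linear model without moderation called 0, 0 and 0 after adjustment (616, 1054 and 530 unadjusted). Accordingly 0 of the 7 members were called. For 4 members the Dzip3-KD pair lay wholly above the control pair, namely *Neurod1*, *Nes*, *Sox1* and *Sox11*, beside 20.4% of all genes tested, and wholly below it for *Cdh2*, beside 30.3%. The Ring1B-KD pair lay wholly above it for *Neurod1* and *Shank3*, beside 14.9% of all genes, and wholly below it for 0 members, beside 18.9%. These contrasts share the libraries labelled control. Both controls lie in the first set and both Dzip3-KD libraries in the second, and this fit by label had no set term. Only the Ring1B-KD pair, split between the sets, could separate label from set in that contrast.

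By file-name word, 48 genes (0.416%) were called for Ring1BKD against control, 0 genes (0%) for Dzip3KD against control and 78 genes (0.676%) for Dzip3KD against Ring1BKD, and 0 of the 7 members were among them. For Dzip3KD against control, 752 genes had an unadjusted limma p under 0.05, and the model without moderation called 0 (663 unadjusted). The Ring1BKD library was above control in both sets for *Nes* and *Shank3*, beside 18.5% of all genes tested, and below it in both for *Sox1*, *Cdh2* and *Tubb3*, beside 40.6%. The Dzip3KD library was above control in both sets for *Neurod1*, *Nes* and *Sox11*, beside 22.3%, and below it for *Sox1*, *Cdh2* and *Tubb3*, beside 29.5%. Between the knockdown words, *Neurod1*, *Cdh2* and *Tubb3* were higher in Dzip3KD in both sets, beside 34%, and *Nes* was lower, beside 20.5%. Within a set both comparisons with control use the same control library. For 7 genes these shares are descriptions and not tests.

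**Figure D3:**
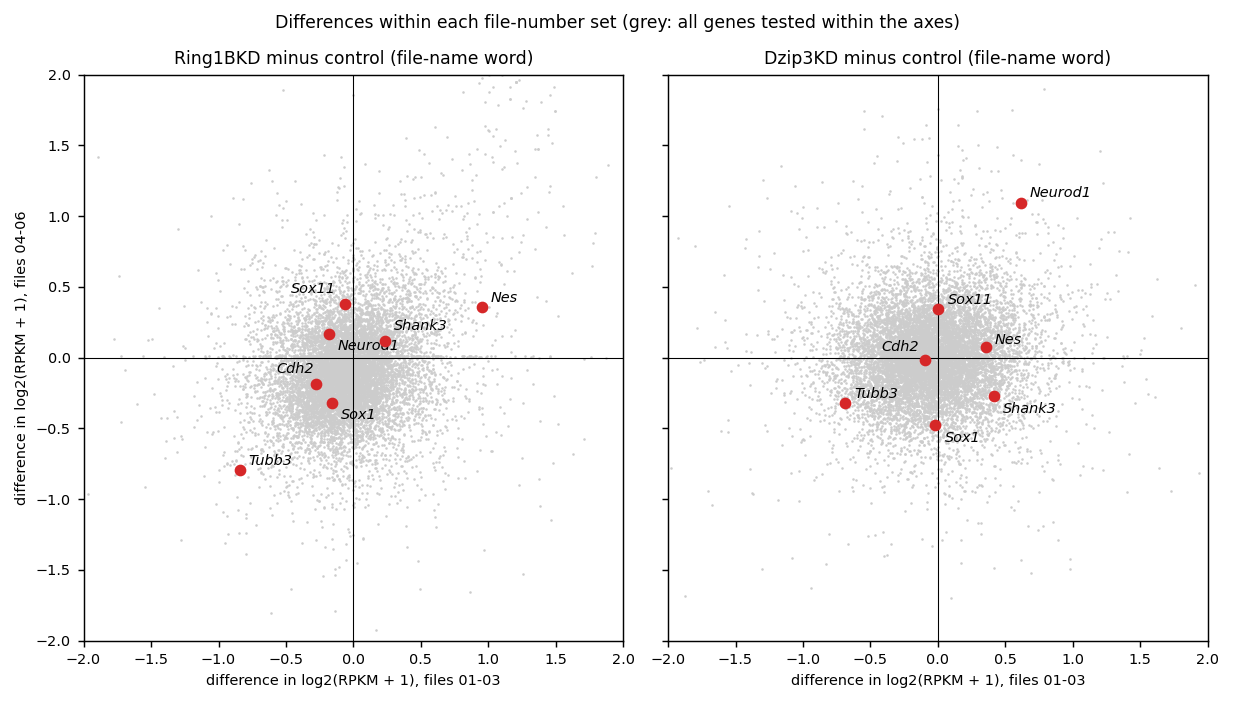
Difference in log2(RPKM + 1) between the library with a knockdown word and that with the word control, in the first set (horizontal axis) and the second set (vertical axis), for Ring1BKD (left) and Dzip3KD (right). Red points are the 7 neural genes tested and grey points the other genes tested, of which 24 on the left and 14 on the right lie outside the axes. *Tubb3* lies at -0.84 and -0.80 on the left and *Neurod1* at 0.61 and 1.10 on the right.

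More genes were called between the sets than between the conditions under either reading. The sets were compared in the fit by file-name word, so the p-values between sets rest on that reading. By label, the first set holds both controls and the second both Dzip3-KD libraries, with a Ring1B-KD library in each. The set difference and that of Dzip3-KD against control therefore largely coincide. By label, only the Ring1B-KD pair separates them, with 1 library on each side. For the second set against the first, a contrast added after seeing the data, limma called 879 genes (7.62%), of which 455 were higher (3.94%) and 424 lower (3.67%; 565 and 342 after scaling to a common 75th percentile). *Nes* was the 1 member of 7 called, with a log2 difference of 0.88 (SE 0.16, adjusted p = 0.0221) and means of 5.98 ± 0.938 RPKM (SD, n = 3) in the second set and 2.91 ± 1.33 RPKM (SD, n = 3) in the first. This call was lost without control 1 (adjusted p = 0.0635), Ring1B-KD 1 (0.0599), Ring1B-KD 2 (0.0683) or Dzip3-KD 2 (0.0632). *Neurod1* (0.61, adjusted p = 0.0795) and *Tubb3* (0.40, adjusted p = 0.0873) did not pass. All 3 libraries of the second set were above all 3 of the first for *Nes* and *Sox1*, beside 13.1% of genes tested, and below for *Cdh2*, beside 15.5%. Summed neuron markers were 34.3 to 46.8 RPKM in the first set and 16.0 to 27.3 RPKM in the second. Nearly all of this fall came from *Stmn2*, at 32.2 to 42.8 RPKM in the first set and 13.0 to 24.5 RPKM in the second. *Map2* went the other way, from 0 to 0.215 RPKM in the first set to 0.548 to 1.01 RPKM in the second. Of 7 pluripotency markers, *Esrrb* (-0.43, adjusted p = 0.0404) and *Tfcp2l1* (-0.48, adjusted p = 0.0351) were lower in the second set and 0 higher (1 lower and 1 higher after the 75th percentile scaling). Of 3 primed epiblast markers tested, *Dnmt3b* was lower (-1.12, adjusted p = 0.0141) and *Otx2* higher. The part of these markers in the differences of the neural genes was not tested. The labels name no batch for the sets.

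The other genes of these pathways were taken from 9 lists. By label, and for Ring1BKD and Dzip3KD against control by file-name word, limma called 0 genes of any list. Of the bHLH list, 5 of 18 genes passed the filter, and the E proteins that pair with proneural factors were the highest, *Tcf3* at 8.46 to 11.3 RPKM and *Tcf4* at 4.86 to 7.56 RPKM. Their differences against control by file-name word ranged from -0.17 to 0.08. In the list of *Id*, *Hes* and *Hey* genes and related bHLH factors, many of which hold proneural factors in check, 8 genes were tested. Among them *Hes1* was at 14.8 to 20.0 RPKM. *Id3* was at 20.9, 21.7 and 12.4 RPKM in the first set and at 2.86, 2.89 and 3.81 RPKM in the second (log2 difference -2.18, limma adjusted p = 0.00397). The median log2 difference of this list between the sets was 0.04, beside -0.04 for all genes. The product of *Id3* sequesters E proteins.

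In the list of neuroectoderm transcription factors, 10 of 26 genes were tested, among them *Zic2* (6.71 to 10.6 RPKM). Between the sets *Otx2*, a forebrain and epiblast factor, was higher in the second (5.72 to 12.1 RPKM against 0.871 to 1.33 RPKM, log2 difference 2.25, limma adjusted p = 0.00236), and *Gbx2*, its hindbrain counterpart, was lower (1.30 to 1.84 RPKM against 7.82 to 7.96 RPKM, log2 difference -1.77, adjusted p = 0.00251). Among 7 other Sox genes tested, *Sox2* was at 131 to 184 RPKM and *Sox21* was higher in the second set (13.3 to 23.0 RPKM against 8.45 to 9.99 RPKM, log2 difference 0.89, adjusted p = 0.0139). Of 16 Notch pathway genes tested, led by *Rbpj* and *Rfng*, none was called in any of these contrasts. *Rfng*, a glycosyltransferase that modifies Notch, was at 15.5 and 15.4 RPKM in the libraries with the word Dzip3KD and at 7.85 to 8.86 RPKM in the other 4 (Dzip3KD against Ring1BKD 0.84, adjusted p = 0.0567).

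Of 18 cytoskeletal genes tested, led by *Tubb5* and *Tuba1b*, 7 were lower in the second set and 0 higher, beside 3.67% lower and 3.94% higher of all genes tested. The counts were 7 and 0 after the 75th percentile scaling and 6 and 0 after quantile normalization, with 342 lower and 565 higher, and 327 lower and 501 higher, of all genes. The list had a median log2 difference of -0.35 beside -0.04 for all genes. They were the neurofilament genes *Nefl* and *Nefm* (-1.75 and -2.32), the stathmins *Stmn2* and *Stmn3* (-1.07 and -1.16), *Map1a* (-0.82), *Vim* (-0.52) and *Tuba1b* (-0.52). Of the members in these gene classes, *Nes* was higher in the same contrast, and *Tubb3* had a difference of 0.40 that did not pass. *Stmn1*, a microtubule-destabilizing stathmin, was at 40.0 and 46.1 RPKM in the libraries with the word Dzip3KD, above the other 4 at 19.3 to 28.3 RPKM. It was the list gene called by file-name word, with a difference of 0.97 for Dzip3KD against Ring1BKD (SE 0.13, adjusted p = 0.0184).

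Of 9 cadherin and catenin genes tested, *Ctnnb1* (88.6 to 111 RPKM) and *Cdh1*, the E-cadherin of mES cells (54.4 to 73.9 RPKM), were far above *Cdh2*. The catenins *Ctnna1*, *Ctnnd1* and *Jup* were lower in the second set (-0.50, -0.49 and -0.62, where 2 genes of the list were called lower after quantile normalization), as was the phosphatase gene *Ctdsp1* among 12 genes of the REST corepressor list (-0.69), which *Hdac2* and *Sin3a* led. Of 12 synaptic genes tested, led by *Vamp2* and *Dlg1*, 0 were called and the list median between the sets was 0.08. Adjusted p-values of the genes called in this paragraph and for the cytoskeletal genes between the sets were 0.00334 to 0.0332.

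**Figure D4:**
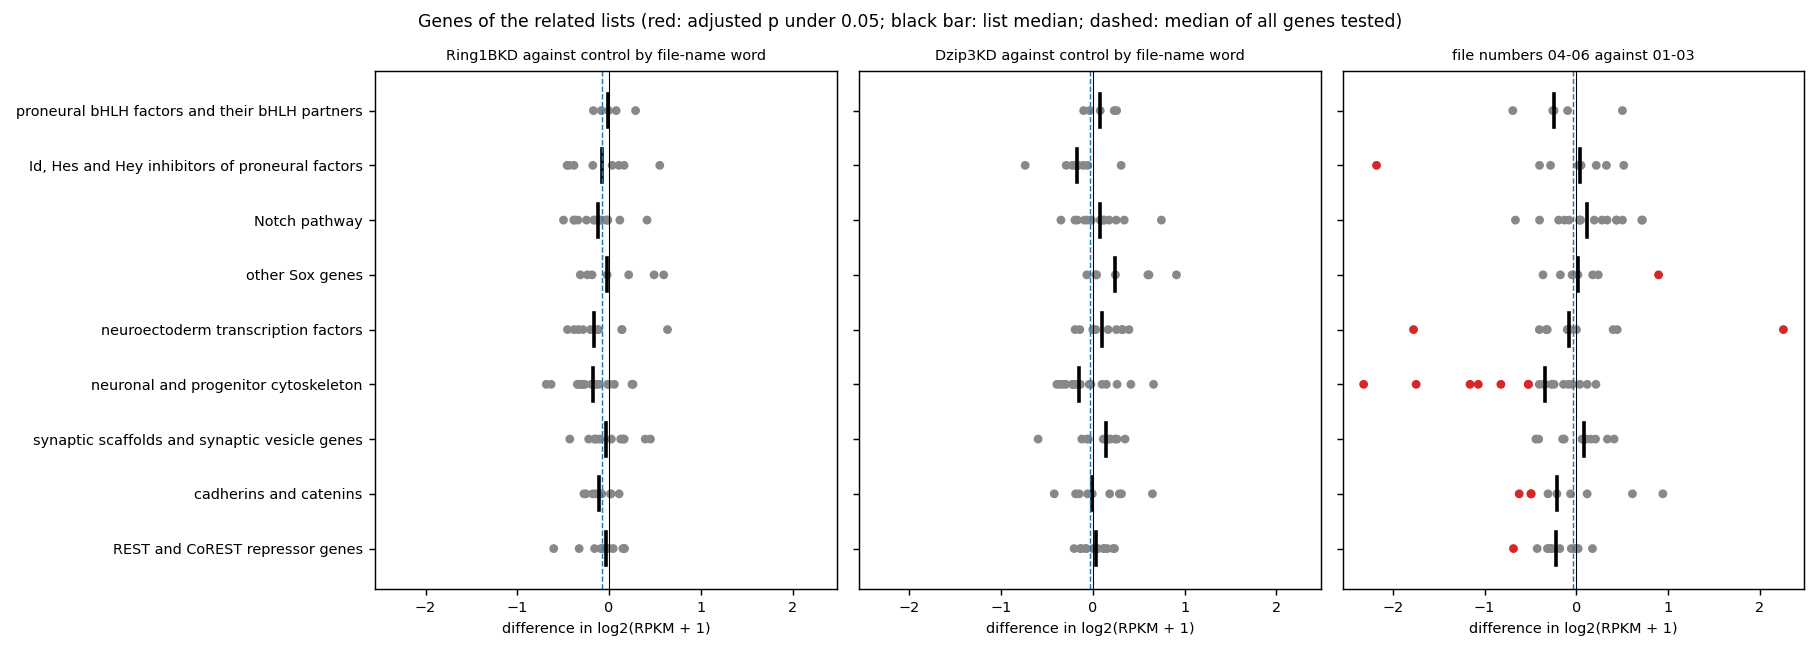
Difference in log2(RPKM + 1) (horizontal axes) of each tested gene of the 9 related lists (rows) for Ring1BKD and Dzip3KD against control by file-name word and for the second set against the first. Red points had a limma adjusted p under 0.05, black bars are list medians and the dashed line is the median of all genes. Red points occur only in the right panel, 7 of them in the cytoskeletal list.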

How the data were processed

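Polyadenylated RNA from 6 samples of E14 mES cells was sequenced by the authors with a stranded mRNA kit on a MiSeq instrument. The authors aligned reads to the mouse mm9 genome and deposited RPKM values, 1 list per library, from reads assigned uniquely to the exons of a gene, so RNA shared between overlapping genes may be missing or misassigned. The gene annotation and software versions are not given in the sources used here. RPKM corrects for depth and exon length but not for RNA composition.

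The labels gave the groups and replicate numbers, and the condition word in each file name was used as a second reading, with the file-number set as a block. The genes, lists and tests were chosen with earlier results of these data known, and the comparison between sets was added after seeing the data. Genes averaging 0.5 RPKM or more were tested with limma 3.58.1 (R 4.3.3, variance trend) on log2(RPKM + 1), with all 6 libraries in 1 fit and a threshold of 0.05 on p-values adjusted by Benjamini-Hochberg over 11538 genes. The code was tested on simulated data.

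Whole reads were recovered for 15480 genes (92.9%), all members included, where the 6 values were whole multiples of 1 step matching an exon length of 100 to 20000 bases. Depth was 3015349 to 3583612 mapped reads. Intervals are exact Poisson or binomial at 95%, the floor is 3 reads, and fewer than 10 reads in every library was called the counting limit. Values of 0 are listed values. Besides all members, *Rnf2* and *Dzip3*, the text names the 2 genes with the highest mean of each list (1 of them is not reported here), every list gene called, the highest gene of each marker list and, for members with a mean of at least 2 RPKM and *Neurod1*, the 3 genes with the most similar pattern. The alternatives were a pseudocount of 0.1, no filter, scaling to a common 75th percentile, quantile normalization, no moderation, replicate and set blocks, and leaving out each library. Protein sequences and the authors' ontology analysis were not used here.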

Additional observations from a re-analysis of the deposited data

How the results depend on the processing

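Over 11 to 14 alternatives per contrast, 623 refitted differences of the 7 neural genes tested were compared with those given above, and 40 changed sign, all of them of differences that had not passed the threshold. *Tubb3* in Ring1BKD against control by file-name word kept its sign throughout, between -0.92 and -0.72, with adjusted p from 0.0395 to 0.948. *Nes* between the sets stayed between 0.74 and 1.10, and beside the libraries named above its call was lost without the filter (adjusted p = 0.111) and without moderation (0.274). *Tubb3* between the sets passed under quantile normalization (0.0480).

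A pseudocount of 0.1 gave 21 genes for Ring1BKD against control and 42 for Dzip3KD against Ring1BKD, in place of 48 and 78. Without the filter, and likewise without moderation, 0 genes were called for Ring1BKD against control, 0 for Dzip3KD against Ring1BKD and 0 between the sets, and without the set block 0 and 0 for the former contrasts. Leaving out each library in turn gave 3 (without Dzip3-KD 1) to 61 genes (without Ring1B-KD 2) for Ring1BKD against control, 0 to 4 for Dzip3KD against control, 26 (without Ring1B-KD 1) to 172 (without control 1) for Dzip3KD against Ring1BKD and 351 (without Dzip3-KD 1) to 509 (without control 1) between the sets. By label it gave 0 to 27 genes for Dzip3-KD against control, with 27 without Ring1B-KD 2, 25 without Ring1B-KD 1 and 0 otherwise. A group left with 1 library is assumed to vary like the others. The cause of these shifts was not tested.

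The labels give every group the replicate numbers 1 and 2. Deviations from the group means of libraries with the same number correlated at -0.036 (Ring1B-KD with control), -0.242 (Dzip3-KD with control) and 0.044 (both knockdown labels). With 2 libraries in a group these deviations mirror each other. A negative value for equal numbers is therefore a positive value of the same size for crossed numbers. Whether libraries were paired was not established. With the replicate number as a block, 0, 1 and 0 genes were called in the label contrasts, and with the numbers crossed, an alternative added after seeing the data, 0, 0 and 0. No member was among them.

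Depth limits these genes: at 4 to 41 reads, the 95% counting interval of the ratio to control within a set included 1 for *Sox1*, *Sox11*, *Cdh2* and *Shank3* in every case and for *Neurod1* in 3 of 4, and *Neurog1* cannot be read in either direction.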

Other observations

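The genes with the most similar profile to a member were looked up among genes averaging 2 RPKM or more (8555 compared for *Neurod1*, 8554 for the others), by Pearson's r of log2(RPKM + 1) over the 6 libraries. For *Neurod1* they were *Zfp566* (r = 0.979, 4.82 to 8.25 RPKM), *Anxa8* (r = 0.973, 1.40 to 4.60 RPKM) and *Dcxr* (r = 0.972, 1.59 to 6.99 RPKM). For *Nes* they were *Cdr2l* (r = 0.997, 3.94 to 4.96 RPKM), *Fmr1nb* (r = 0.984, 12.1 to 25.7 RPKM) and *Rnpc3* (r = 0.980, 1.79 to 5.20 RPKM). For *Tubb3* they were *Fam73a* (r = 0.994, 6.70 to 12.0 RPKM), *Ankrd35* (r = 0.990, 2.37 to 5.08 RPKM) and *B4galt6* (r = 0.986, 20.7 to 24.7 RPKM). With 6 points and so many genes compared, values this high are a description of these libraries only, and no p-value is given. The points also share the difference between the sets.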
